A study of Mus musculus with 24 samples.

Results

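The transcripts described here are 100 long noncoding RNAs (lncRNAs) that the study lists as specific to mouse kidney, out of 60804 transcript probes on the array. All 102 entries of the study's kidney list were taken except AI314278 and Gm853. The entries were chosen by measured values: a fold and a p-value for kidney against each of brain, heart, liver and testis, and flags of presence, all from the 15 tissue arrays that are also described below. Levels in kidney and in the other tissues are therefore given as a description without a test. The 9 arrays of cell lines took no part in that choice, and comparisons among the lines were tested.

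Tissues came from 8-week-old male ICR mice, an outbred stock, and kidney, brain, heart, testis and liver had 3 arrays each. The lines, all of male origin, were grown without any treatment in serum-containing medium, with 3 arrays each. F9 is an embryonal carcinoma line, used as a model of early embryonic cells, whereas GC-1 and GC-2 are immortalized germ cell lines with traits of spermatogonia and of spermatocytes. None of them comes from kidney, and each stands for a single line. No source used here says whether the 3 arrays of a line came from separate cultures, so p-values between lines measure the spread between these arrays only. Whole kidney holds many cell types, and a low level in a tissue cannot tell fewer expressing cells from less RNA per cell.

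The kidney filters blood in its glomeruli and then recovers water, salts, sugars and amino acids along the nephron. The proximal tubule takes up most solutes and metabolizes lipids, lactate and inositol, while distal tubule and collecting duct adjust calcium, acid and water. Many lncRNAs are transcribed from the same locus as a protein-coding gene and carry its symbol on the array. Such a probe is annotated to the noncoding transcript. Probe sequences were not used here, so whether it also reads the mRNA of that gene was not tested.

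By symbol or synonym, 56 of the 100 lncRNAs matched a gene of the RefSeq annotation of GRCm38.p6, and 44 did not. Of the matches, 33 were to protein-coding genes and 23 to lncRNA genes. Gm15848 was represented by 2 transcripts, ENSMUST00000122968 and ENSMUST00000125056, so 55 different genes were matched. Several of the names on the array have since been replaced. Gm10664 is Apela, D630042F21Rik is Tmem52b, 9430008C03Rik is Snhg17, C330013F16Rik is Platr21 and 3110039I08Rik is Mir100hg. Among the matched genes the closest neighbours were Ptpn22 and Gm15471 on chromosome 3, with 48135 bp between them.

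RefSeq gives 63 promoters, each from 250 bases before to 50 bases after a start site, for 45 of the matched genes. Those of the host genes named most often below are printed to give the sequence context of the loci. Tmigd1 and Treh are the protein-coding hosts with the highest lncRNA levels in kidney, and Apela and Platr21 are the matched genes whose transcripts were high in F9 and at background in both germ cell lines. Strand is + for Tmigd1 and Treh and - for Apela and Platr21, all on GRCm38.p6. Capitals mark TATAAA in the Tmigd1 window chr11:76901909-76902208 and, in the Treh window chr9:44672983-44673282, the opposite strand of CAAAGTCCA, a motif of the factor HNF4. The Apela window is chr8:65037287-65037586 and the Platr21 window chrX:139357689-139357988. Tmigd1 and Platr21 each have 2 promoters in the table, of which 1 is shown. The Tmigd1 window that is not shown holds no TATAAA.
Tmigd1: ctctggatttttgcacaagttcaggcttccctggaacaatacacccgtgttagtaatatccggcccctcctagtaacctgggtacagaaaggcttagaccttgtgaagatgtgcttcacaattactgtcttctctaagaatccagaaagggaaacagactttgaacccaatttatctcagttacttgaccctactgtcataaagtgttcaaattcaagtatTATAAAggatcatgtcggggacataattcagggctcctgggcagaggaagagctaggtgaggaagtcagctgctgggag
Treh: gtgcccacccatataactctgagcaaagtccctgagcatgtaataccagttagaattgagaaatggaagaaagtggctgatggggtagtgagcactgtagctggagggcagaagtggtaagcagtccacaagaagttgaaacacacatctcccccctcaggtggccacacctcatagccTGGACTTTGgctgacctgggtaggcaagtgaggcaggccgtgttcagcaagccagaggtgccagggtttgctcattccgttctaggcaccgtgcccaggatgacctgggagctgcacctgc
Apela: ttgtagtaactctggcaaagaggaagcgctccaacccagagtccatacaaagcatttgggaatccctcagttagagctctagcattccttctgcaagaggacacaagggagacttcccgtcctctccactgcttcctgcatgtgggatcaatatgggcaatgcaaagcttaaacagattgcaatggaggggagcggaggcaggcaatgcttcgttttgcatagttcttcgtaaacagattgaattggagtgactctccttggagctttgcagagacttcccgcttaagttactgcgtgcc
Platr21: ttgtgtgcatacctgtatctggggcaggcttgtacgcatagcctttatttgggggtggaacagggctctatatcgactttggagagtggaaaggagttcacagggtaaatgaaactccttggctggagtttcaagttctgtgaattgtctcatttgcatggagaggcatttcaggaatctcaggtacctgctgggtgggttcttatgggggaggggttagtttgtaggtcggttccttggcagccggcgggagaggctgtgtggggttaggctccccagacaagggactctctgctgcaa

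Motifs were searched on both strands and describe the host gene's start, which need not be that of the lncRNA. GTTAAT, a half-site of the kidney and liver factor HNF1, was in 14 of the 63 promoters (22.2%), including those of Miox, Lrrc31, Map2k4, Gm12678 and Snhg17. These promoters belong to 12 genes, and the overlapping windows of Snhg17 count the same site more than once. Over all 32851 promoters of the table, 7.1% held it. The full HNF1 palindrome, which contains this half-site, was in none of the 63 and in 0.00913% of all. CAAAGTCCA was in 3 of 63 (4.76%), those of Treh, Osbpl6 and Ptpn22, and in 0.475% of all promoters. TATAAA was in 8 of 63 (12.7%), among them promoters of Miox, Aqp3, Abcg2 and Tmigd1, and in 13.6% of all. No binding was measured in this series.

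Levels are log2 processed signals minus the 75th percentile of the same array, so a transcript at 0 is as bright as that percentile. A transcript was taken as detected in a group when its probe was flagged well above background on all 3 arrays. The 75th percentile itself lay between 77.6 and 98.3 signal units on the kidney arrays, between 30.7 and 49.8 on the liver arrays and between 305 and 384 on the testis arrays. Replicate 1 of all groups shared a slide. Slide 2 carried the remaining arrays of kidney, testis, brain and liver, and slide 3 those of heart and the lines. No spot of the 100 lncRNAs was saturated or an outlier on any array. Of 25 kidney marker genes listed for a check of the tissue label, 7 had a lncRNA among the 100 (Slc5a12, Miox, Calb1, Aqp3, Pax8, Fxyd2 and Tmigd1). These lncRNAs were chosen for being high in kidney, so none is an independent check. Levels of the other listed markers are not given here. The mRNA of Star, a marker of steroid-producing cells such as those of the adrenal gland, was well above background on 0 of the 3 kidney arrays.

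In kidney, the mean levels of the 100 lncRNAs ran from -1.41 to 5.02 with a median of 0.66, and 63 of them lay above 0. Over all 24044 probes detected in kidney the median was 0.90. The brightest 10% of those probes began at 5.74, which no kidney lncRNA reached. The kidney lncRNAs were thus of middle strength among the transcripts of this tissue.

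**Figure D1:**
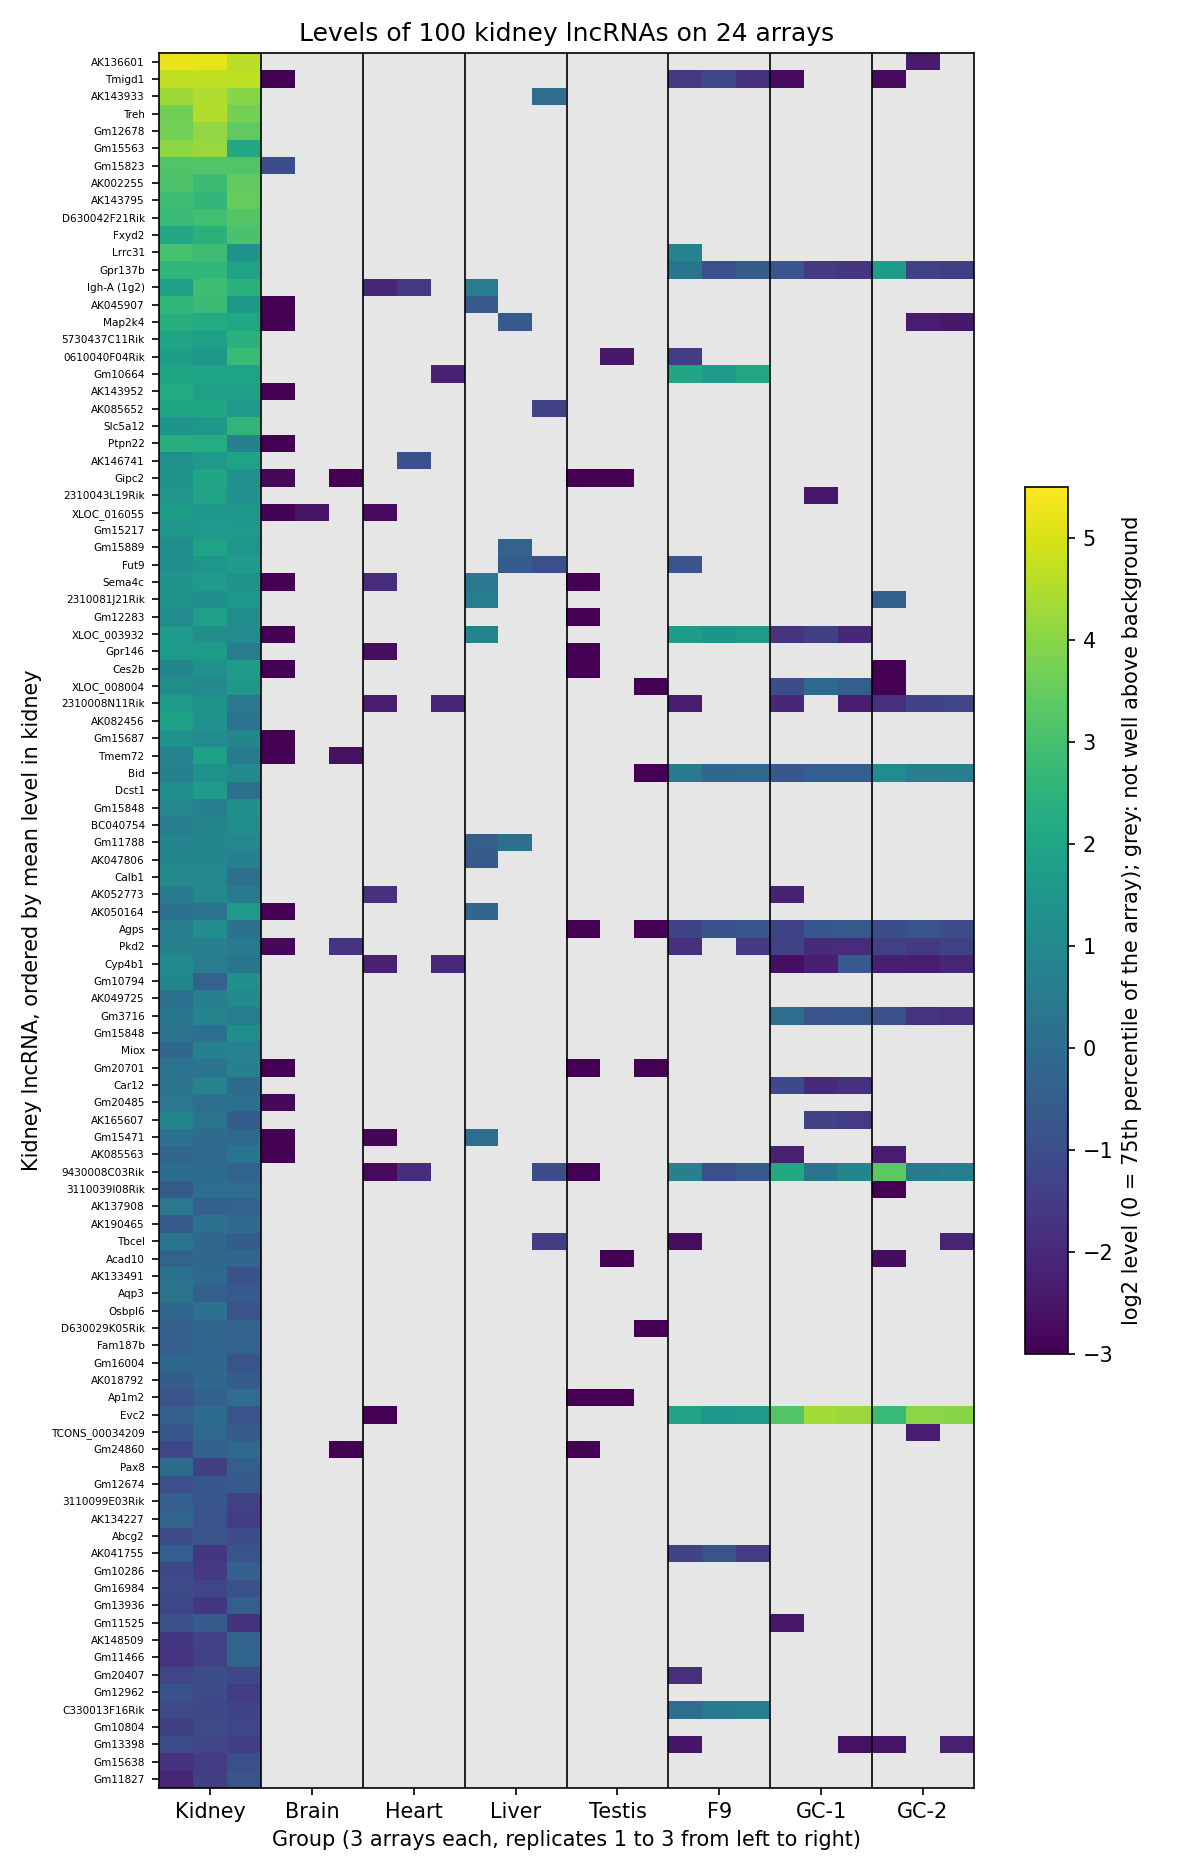
Heat map of log2 levels of the 100 kidney lncRNAs (rows, from the highest to the lowest mean level in kidney) on the 24 arrays (columns, 3 per group, replicates 1 to 3). Colour gives the level where the probe was well above background, and grey marks arrays where it was not. The kidney columns are filled throughout, 45 rows have at least 1 coloured cell in another tissue, and continuous colour in a line is limited to 16 rows.

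The strongest was AK136601, a cDNA clone with no matched gene, at 5.24, 5.18 and 4.63 on the 3 kidney arrays. Its processed signal there was 3702, 2807 and 1934, against 6.18, 3.12 and 3.19 on the liver arrays. It was at least 79.1-fold higher in kidney than in each other tissue. The lncRNA of Tmigd1, which encodes a transmembrane immunoglobulin-domain protein of kidney and gut epithelium, followed at 4.69, 4.70 and 4.69, with a bound of 63.2-fold. Then came AK143933 (4.25 ± 0.24, SD, n = 3, as for all values written so), the lncRNA of Treh (3.97 ± 0.48), Gm12678 (3.75 ± 0.36) and Gm15563 (3.46 ± 1.12). Treh is trehalase, a brush border enzyme that splits trehalose. Gm15823, AK002255, AK143795 and D630042F21Rik completed the 10 strongest, with means between 2.96 and 3.19. Of these 10, Tmigd1, Treh, Gm12678 and D630042F21Rik matched a RefSeq gene and the other 6 did not.

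The weakest were Gm11827 and Gm15638, both at -1.41, followed by Gm13398 (-1.22), Gm10804 (-1.21) and C330013F16Rik (-1.14). Gm11827 read -2.08, -1.40 and -0.76, and Gm15638 -1.79, -1.50 and -0.93. Their kidney signals of 23.2 to 46.1 units were well above background, but their mean level lay under the mean, over the 3 liver arrays, of the lowest level well above background. The bound for these 2 lncRNAs is therefore under 1, and no fold over liver is given.

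The transporters and ion handlers formed a group of 6 with levels from -0.91 to 2.55 and a median of 0.52, and none was well above background on any array of another tissue. Highest was the lncRNA of Fxyd2, the gamma subunit of the sodium pump, at 2.13, 2.46 and 3.07. The lncRNA of Slc5a12, a sodium-coupled lactate transporter of the proximal tubule, read 1.41, 1.52 and 2.55. Calb1, the calcium-binding calbindin of the distal tubule, had 1.01, 0.98 and 0.13, and Car12, a membrane-bound carbonic anhydrase, 0.25, 0.80 and -0.04. Lower were Aqp3, a water and glycerol channel of the collecting duct, at 0.26, -0.42 and -0.59, and Abcg2, an efflux pump, at a mean of -0.91 ± 0.14. Hosts from proximal tubule, distal tubule and collecting duct were thus all represented.

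Among 7 enzyme hosts the median was 0.66. Besides Treh, Fut9, a fucosyltransferase, stood at 1.48 ± 0.29 and Ces2b, a carboxylesterase, at 1.28 ± 0.38. The lncRNA of Agps, an enzyme of ether lipid synthesis, was at 0.66 ± 0.50 and that of Cyp4b1, a cytochrome P450 that oxidizes fatty acids and foreign compounds, at 0.65 ± 0.39. Miox, the inositol oxygenase of the proximal tubule, read -0.12, 0.74 and 0.76, so that replicate 1 was the lowest.

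Hosts in signalling, transcription and cilia numbered 10, with a median of 1.38 and a range from -0.60 to 2.38. Gpr137b, a lysosomal membrane protein, was highest at 2.60, 2.62 and 1.93. Apela, a secreted peptide of the apelin receptor known from pluripotent cells and adult kidney, gave close values of 2.04, 1.94 and 1.92 through its transcript Gm10664. Pkd2, the polycystin-2 channel of the primary cilium, was at 0.73, 0.71 and 0.51, and Pax8, a transcription factor of nephron development, at 0.00, -1.40 and -0.41. The Pax8 lncRNA was therefore among the weaker and more variable ones, although its host is a defining kidney factor.

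The 10 membrane and trafficking hosts had a median of 1.02. Tmigd1 stood far above the others, and Tmem72, a transmembrane protein, read 0.82, 1.80 and 0.52. The immunoglobulin heavy chain transcript Igh-A, a product of plasma cells, was at 1.83, 2.86 and 2.44 in kidney. No probe of another plasma cell marker (Jchain, Cd79a) could be named, and the part of such cells in this value was not tested. The 23 matched lncRNA genes had the lowest median, 0.02, against 1.03 for the 33 protein-coding hosts and 0.68 for the 44 unmatched transcripts. The 2 transcripts of Gm15848 read 0.94, 0.69 and 1.28, and 0.25, 0.10 and 1.24, which overlapped.

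The 3 kidney arrays did not agree equally well for all. The median range between the highest and the lowest kidney array was 0.70 on the log2 scale, compared with 0.48 over all probes detected in kidney. A range over 1 was seen in 28 of the 100, against 11.4% of those probes, and 14 of the 28 were lowest on replicate 3. Gm15563 had 4.02, 4.18 and 2.17, Lrrc31 3.01, 2.85 and 1.36, and Ptpn22, a phosphatase of lymphocytes, 2.33, 2.25 and 0.75. By contrast, 12 lncRNAs were highest on replicate 3 by over 0.5, among them Slc5a12 and Fxyd2, while 18 were lowest there by the same margin. Over the probes detected in kidney these shares were 5.15% and 5.8%. On replicate 1, 6 were highest and 7 lowest by that margin (6.88% and 7.64% of those probes), and on replicate 2, 9 and 3 (3.09% and 2.92%).

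Each other tissue was next compared with kidney, first by detection. No lncRNA was well above background on all 3 arrays of another tissue, as the choice required. Together with detection on all 3 kidney arrays, this pattern was shared by 1.05% of all probes. Flags on single arrays were frequent all the same. Of the 100, 55 were flagged on none of the 12 arrays of the other tissues and 45 on 1 to 4 of them. Brain had a flag for 20 lncRNAs, liver for 16, testis for 15 and heart for 12. Of these flags 48 fell on replicate 1 arrays, 12 on replicate 2 and 17 on replicate 3. Over all probes the share well above background was 49.0% on those replicate 1 arrays, 46.2% on replicate 2 and 47.0% on replicate 3. The part of the shared slide in this excess was not tested.

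Flags on 2 arrays of a tissue were limited to 13 lncRNAs. In brain these were Gipc2, XLOC_016055, Tmem72 and Pkd2, all under -1.7 there, and in heart Igh-A, 2310008N11Rik, Cyp4b1 and 9430008C03Rik. In liver they were Fut9 (-1.27, -0.52 and -0.91) and Gm11788 (-0.42, 0.11 and -1.84). Testis had Gipc2, Agps, Gm20701 and Ap1m2, all at -3.5 or below. On this scale the liver values were thus the highest of these, and Igh-A also reached 0.58 on liver replicate 1. It was not the highest of the 100 on that array, where XLOC_003932 read 0.81. A given signal reads as a higher level on liver arrays, whose 75th percentile was the lowest (30.7 to 49.8 signal units). In signal units Gm11788 reached 37.3 on liver replicate 1, whereas Pkd2 reached 44.0 on brain replicate 3. Liver replicate 1 also had the brightest negative control spots, as given below.

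The 3 kidney arrays lay above all 12 arrays of the other tissues for 98 lncRNAs, a pattern met by 4.38% of all probes. The exceptions were Gm15471, with 0.16, -0.01 and -0.09 in kidney and 0.03 on liver replicate 1, and 3110099E03Rik, with -0.47, -0.73 and -1.36 against -0.85 on that array. Liver replicate 1 stood apart in its negative control spots, whose 95th percentile was 13.6 signal units against 2.97 to 4.97 on the other 23 arrays. Without it, an alternative chosen after seeing the data, the count was 100, where 4.73% of all probes met the pattern. Within slide 1 (1 kidney array against 4) and within slide 2 (2 against 6) the count was also 100, and 12.7% and 8.91% of all probes met these easier patterns. Since the lncRNAs were chosen on these arrays, nothing is read from these counts.

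**Figure D2:**
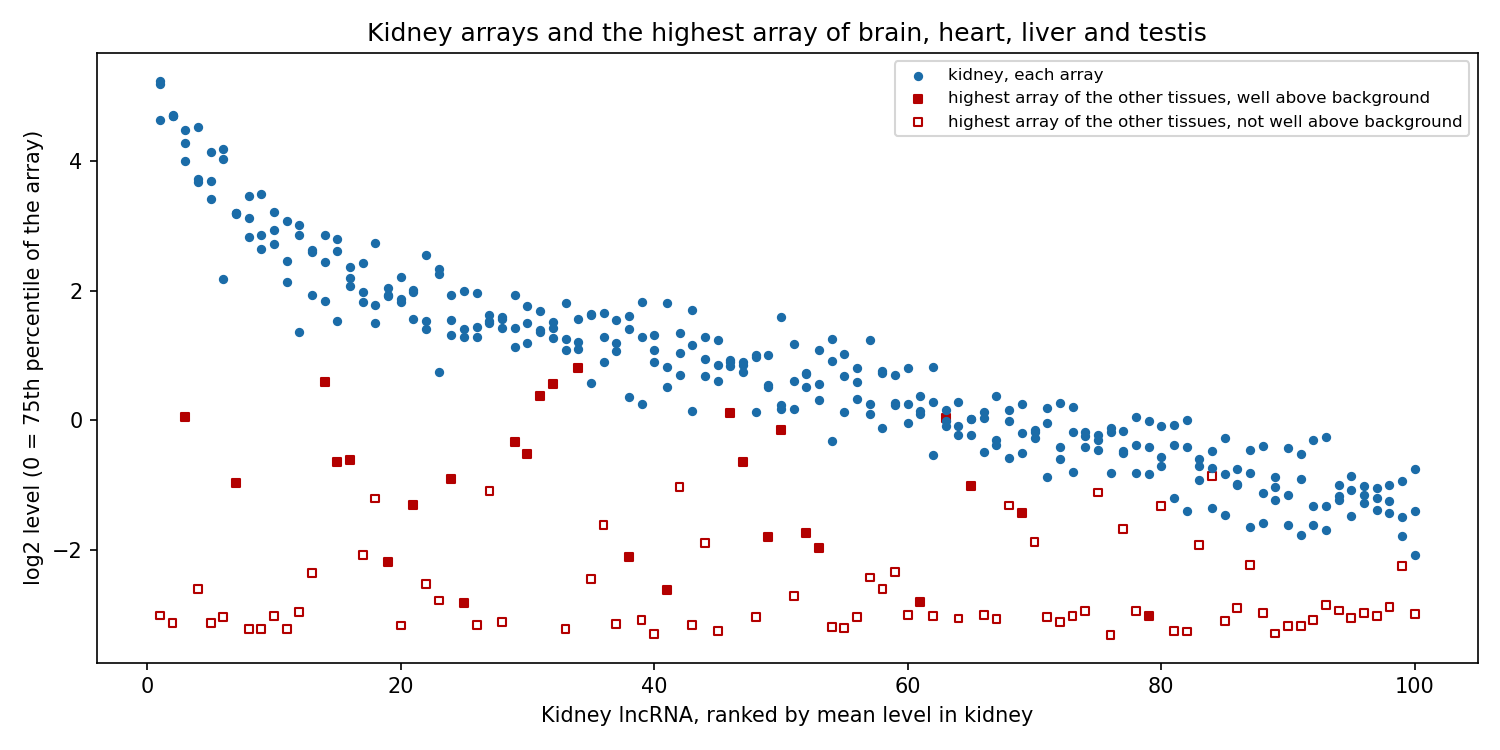
Level of each kidney lncRNA on the 3 kidney arrays (blue dots) and on the highest of the 12 arrays of brain, heart, liver and testis (red squares, filled where well above background), against its rank by mean level in kidney. The squares are filled for 27 of the 100, and the distance between dots and squares narrows toward the lower ranks.

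By mean level the nearest other tissue was liver for 90 lncRNAs, heart for 8 and brain for 2, Gipc2 and Tmem72. Values below background have no order, and the level that liver arrays could call, -1.61 to -0.98, was the highest of all groups. After quantile normalization liver was nearest for 62. Lower bounds show the same limit. Here the mean level in kidney was set against, per array of the other tissue, the higher of the probe's own level and the lowest level well above background. The median bound was 38.9-fold over testis, 17.3-fold over brain, 9.98-fold over heart and 3.84-fold over liver. The bound over all 4 tissues reached 5-fold for 37 of the 100.

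**Figure D3:**
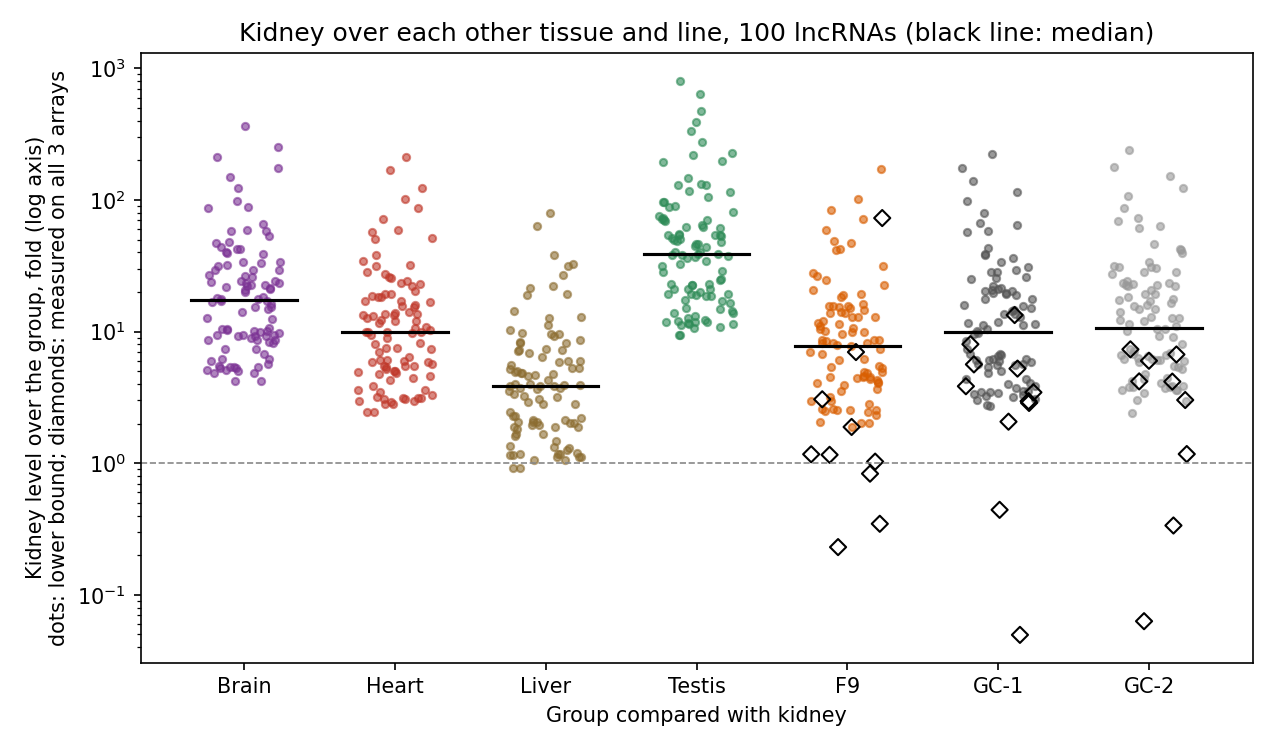
Fold of the mean kidney level over each other tissue and line for the 100 lncRNAs, on a log axis. Dots are lower bounds, diamonds are folds where the group was well above background on all 3 arrays, black lines are medians over all points of a group, and points under the dashed line at 1 give no bound over liver but show lines as high as or higher than kidney where they are diamonds. The dots for testis lie highest and those for liver lowest, and diamonds occur only in the lines.

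The study required a 5-fold difference on its own normalization. On the scale used here the fitted difference of means over the nearest tissue, background values included, was 5-fold or more for 78. Closest to 5 among the 100 were Gm12962 (4.55), 2310081J21Rik (4.60) and Gm10286 (4.79) below it, and AK148509 (5.03), Fut9 (5.22) and Gm13936 (5.31) above it. Of 539 other probes with the same pattern of detection, lncRNAs and mRNAs together, 209 were 5-fold or more, and those nearest the limit stood at 4.81, 4.98 and 4.99 on one side and 5.07, 5.08 and 5.16 on the other.

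The question then was which kidney lncRNAs are also present in the cultured lines. F9 had 10 of the 100, GC-1 11 and GC-2 9, and 16 were detected in at least 1 line. Over all probes, F9 detected 36.7%, GC-1 40.9% and GC-2 40.9%. Over probes detected in kidney these shares were 79.9%, 86.1% and 85.5%. At least 1 line detected 46.4% of all probes and 90.7% of kidney probes, and all 3 lines 32.8% and 75.9%, against 5 of the 100 lncRNAs. A closer background are the 639 probes detected in kidney and in no other tissue, the 100 included, of which 26.3% were detected in a line. Most kidney lncRNAs were thus not well above background in culture: 66 were flagged on none of the 9 line arrays, and 41 on none of the 21 arrays outside kidney. Where a line did not detect a lncRNA, the median bound of kidney over that line was 8.32-fold for F9, 11.4-fold for GC-1 and 12.6-fold for GC-2. Weaker expression in the lines therefore remains possible, and a looser flag gave higher counts, as given below.

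The lines had 51 flags on their replicate 1 arrays, 35 on replicate 2 and 37 on replicate 3. Leaving out each line in which a lncRNA was detected, 21, 5 and 7 flags remained, so these were again most frequent on replicate 1. Over all probes the shares well above background were 45.9%, 42.3% and 42.5%. The lncRNA of Lrrc31 read 0.79 on F9 replicate 1 but -2.20 and -2.31 on the others, and that of Fut9 -0.75, -2.76 and -1.94. In all, 18 lncRNAs had such a flag without being detected in any line.

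Of the 16 detected in a line, 9 had a protein-coding host (of 33), 4 were lncRNA genes (of 23) and 3 were unmatched (of 44). By host function, 5 of 10 signalling hosts, 2 of 7 enzymes, 1 of 6 transporters and 1 of 10 membrane hosts were detected. They were not the strongest in kidney: with the 100 ranked by kidney level and cut into 4 equal groups, 3, 4, 6 and 3 fell into the groups from highest to lowest.

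**Figure D4:**
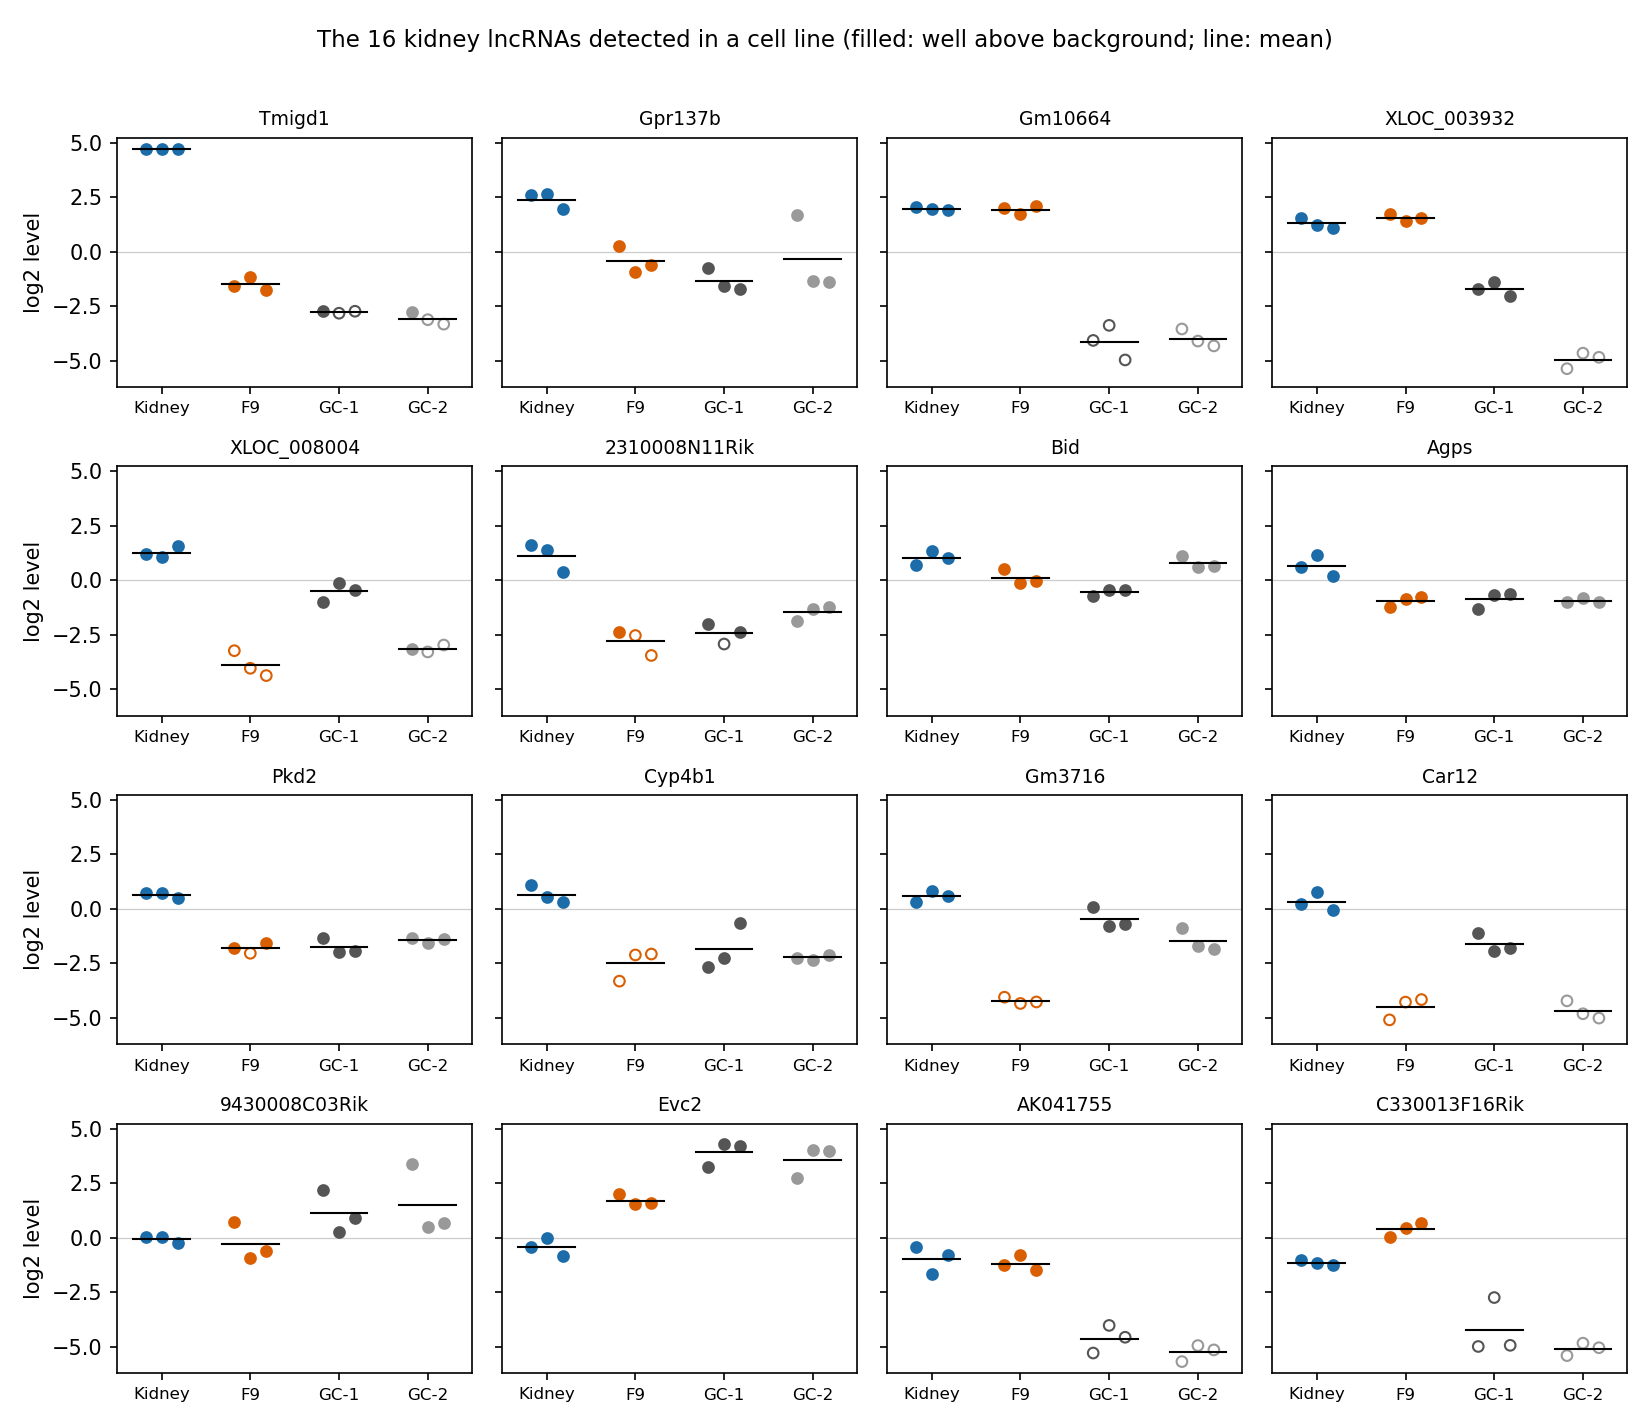
Log2 levels of the 16 lncRNAs detected in a line, on each of the 3 arrays of kidney, F9, GC-1 and GC-2 (replicates 1 to 3 from left to right). Filled points were well above background, open points were not, and black lines are means. Gm10664, XLOC_003932 and AK041755 overlap kidney in F9 and are at background in GC-2, and Evc2 lies above kidney in all 3 lines.

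In all 3 lines the lncRNAs of Gpr137b, Bid, Agps and Evc2 and the transcript 9430008C03Rik were detected. Bid, an activator of cell death, had 0.70, 1.35 and 1.04 in kidney, 0.52, -0.12 and -0.05 in F9, -0.71, -0.44 and -0.45 in GC-1 and 1.13, 0.62 and 0.66 in GC-2. GC-2 overlapped kidney and the other lines lay below it. Agps was 1.52 to 1.61 lower than kidney on the log2 scale in every line, with means of -0.96, -0.86 and -0.94 in F9, GC-1 and GC-2. Gpr137b was 6.98-fold lower in F9, 13.3-fold in GC-1 and 6.69-fold in GC-2 than in kidney. Its GC-2 arrays read 1.68, -1.36 and -1.41, so replicate 1 set that mean.

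Evc2, a ciliary protein of Hedgehog signalling, went the other way. Its lncRNA had -0.42, -0.01 and -0.83 in kidney, 1.98, 1.53 and 1.60 in F9, 3.22, 4.32 and 4.22 in GC-1 and 2.72, 4.01 and 3.98 in GC-2. Every line array was above every kidney array, by 4.34-fold in F9, 20.2-fold in GC-1 and 15.9-fold in GC-2 on average. Between lines it was 2.22 ± 0.41 (SE) lower on the log2 scale in F9 than in GC-1 (limma adjusted p = 0.0033), which is 4.64-fold and under the 5-fold limit for a call. Without F9 replicate 1 or without GC-1 replicate 1 it was called. Kidney thus ranked lowest among the groups in which this kidney lncRNA was detected.

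9430008C03Rik belongs to Snhg17, a host gene of small nucleolar RNAs that lies at chr2:158353700-158361522. It read 0.02, 0.02 and -0.23 in kidney, 0.71, -0.92 and -0.62 in F9, 2.17, 0.27 and 0.90 in GC-1 and 3.36, 0.48 and 0.69 in GC-2. Both germ cell lines lay above all kidney arrays, but replicate 1, which was on slide 1, was the highest array in each line. None of its differences between lines passed the test (limma adjusted p from 0.14 to 0.84).

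The lines were compared in pairs with limma on their 9 arrays. A call required a fold of at least 5, an adjusted p of 0.05 or less over all probes and detection in the higher line. Between F9 and GC-1, 4 of the 100 lncRNAs were higher in F9, where 2.85% of all probes were called, and 3 were higher in GC-1 (3.63%). Between F9 and GC-2, 4 were higher in F9 (3.06%) and 1 in GC-2 (3.09%). Between GC-1 and GC-2, 3 were higher in GC-1 (1.78%) and 0 in GC-2 (1.10%). These shares are close to the background. At an unadjusted p under 0.05 with no limit on the fold, 21, 24 and 13 lncRNAs differed in the respective pairs, against 32.5%, 34.5% and 19.1% of all probes. The methods' t-test gave the same 0 for GC-2 over GC-1.

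The 4 called in F9 were the same against both germ cell lines. Gm10664, the Apela transcript at chr8:65028417-65037336, read 2.00, 1.71 and 2.07 in F9, as in kidney, and was not well above background on any GC-1 or GC-2 array. It was at least 27.7-fold higher in F9 than in GC-1 (adjusted p = 3.4e-06) and at least 30.2-fold higher than in GC-2 (3.7e-06). C330013F16Rik is Platr21, named for pluripotency-associated transcripts, at chrX:139240226-139357738. It had 0.04, 0.46 and 0.65 in F9 and -1.01, -1.15 and -1.27 in kidney, so F9 lay 2.89-fold above kidney. F9 exceeded GC-1 at least 9.37-fold (adjusted p = 0.00018) and GC-2 at least 10.4-fold (5.7e-05). Both transcripts were thus at or above their kidney level in the embryonal carcinoma line.

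XLOC_003932 was graded across the lines, with 1.71, 1.41 and 1.55 in F9, -1.71, -1.40 and -2.02 in GC-1 and no array well above background in GC-2. The F9 arrays overlapped those of kidney (1.56, 1.21 and 1.10). F9 was 9.63-fold higher than GC-1 (adjusted p = 1.7e-05) and at least 23.3-fold higher than GC-2 (2e-07), and GC-1 was at least 2.42-fold higher than GC-2 (4.6e-05). AK041755 had -1.26, -0.81 and -1.51 in F9, which overlapped kidney (-0.45, -1.65 and -0.81). Its fold over GC-1 was at least 3.19 (adjusted p = 8.6e-05) and over GC-2 at least 3.47 (2.8e-05). Neither transcript has a matched gene.

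In GC-1, the lncRNA of Car12 read -1.10, -1.94 and -1.77, below its kidney arrays, and was not well above background in F9 or GC-2. It was at least 1.75-fold higher in GC-1 than in F9 (adjusted p = 0.00022) and at least 2.61-fold higher than in GC-2 (0.00039). XLOC_008004 had -0.99, -0.11 and -0.45 in GC-1, at least 3.73-fold above F9 (6.7e-05) and at least 5.26-fold above GC-2 (0.00088), where 1 array was flagged. Gm3716, a lncRNA gene at chr5:64593863-64610699, was shared by the germ cell lines, with 0.07, -0.77 and -0.71 in GC-1 and -0.89, -1.71 and -1.85 in GC-2. F9 was at least 3.85-fold lower than GC-1 (2.6e-05) and at least 1.91-fold lower than GC-2 (0.0002), all by limma. Among the host genes with known roles in tubules, Car12 was thus the one whose lncRNA differed between lines by a call. Both of its bounds were under 5-fold, and neither call remained under the background correction given below. AK165607 was flagged on GC-1 replicates 2 and 3 only (-1.31 and -1.48, against -5.05 on replicate 1), and without GC-1 replicate 1 it was also called higher in GC-1 than in both other lines.

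The bounds are smaller than the fitted folds, from which the calls were made and which include background values. With a normexp background correction, 3 of these 15 calls remained: Gm10664 against both lines and XLOC_003932 between F9 and GC-2.

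The remaining detected lncRNAs were dim and did not differ by a call. Tmigd1 was detected in F9 at -1.57, -1.16 and -1.75, 72.8-fold below kidney, and on 1 array each of GC-1 and GC-2. Pkd2 was found in GC-1 (-1.73 ± 0.35) and GC-2 (-1.41 ± 0.12), 5.23-fold and 4.18-fold below kidney. Cyp4b1 was found in the same lines at -1.84 ± 1.08 and -2.22 ± 0.12, and 2310008N11Rik in GC-2 at -1.46 ± 0.35. All of their line arrays lay below their kidney arrays. The lncRNAs of the other named tubule hosts, Fxyd2, Slc5a12, Aqp3, Abcg2, Calb1, Miox and Treh, were well above background on none of the 9 line arrays. For Treh this put kidney at least 83.5-fold above F9, and for Fxyd2 at least 31.3-fold.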

How the data were processed

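Total RNA was labelled with a single dye and hybridized to an Arraystar mouse lncRNA array, 1 array per sample. The deposited scanner files hold intensity values that the authors obtained with Agilent Feature Extraction 11.5.1.1, background-subtracted but not normalized between arrays. The deposited series table holds the same intensity values (largest relative difference 0.000228). The GeneSpring normalization of the study is not in these files. Probes were named through the study's kidney list, of which AI314278 and Gm853 were not used, and host genes through RefSeq by symbol or synonym. The lncRNAs, the marker and host lists and the tests were chosen with earlier results of these data known.

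Here, log2 processed signals were taken minus the 75th percentile over the 60804 transcript probes of each array, without control spots. Lines were compared with limma 3.58.1 in R 4.3.3 (lmFit and eBayes on 9 arrays, 60804 probes, Benjamini-Hochberg adjustment). Calls required 5-fold, adjusted p of 0.05 and detection in the higher line. In simulated data for F9 against GC-1, 184 of 200 probes changed by 3.5 on the log2 scale were recovered, with 1 other call among 60804 probes. The changed probes were drawn from those detected in a line, and each array had independent noise. Detection in the higher line was not required there, so these numbers do not give the error rate of the calls above. Tables and plots were made with Python 3.11.15, numpy 2.4.6, pandas 2.3.3 and matplotlib 3.10.9. A lower bound set the kidney mean against, per array, the higher of the probe's own level and the lowest level well above background. The number of arrays limits the precision.

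Named were lncRNAs detected in a line or called between lines, the 10 strongest and 5 weakest in kidney, listed tubule hosts, shared symbols, those well above background on 2 arrays of another tissue, those nearest 5-fold, and Igh-A. Others (Gm15471, 3110099E03Rik, Lrrc31, Ptpn22, AK165607) were named after their values were seen. Alternatives covered background correction (normexp with offset 50 on median signals, since the mean signal column was not used here), scaling, flags, filters, slide, replicate number, the methods' t-test and leaving out arrays.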

Additional observations from a re-analysis of the deposited data

Results flagged for a closer look

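C330013F16Rik, the Platr21 transcript, moved in opposite directions from kidney in the lines: all 3 F9 arrays lay above all kidney arrays, and all GC-1 and GC-2 arrays lay below them. The difference between F9 and GC-1 was 4.61 ± 0.54 (SE) on the log2 scale (limma adjusted p = 0.00018) and that between F9 and GC-2 was 5.48 (adjusted p = 5.7e-05). The values in both germ cell lines were not well above background, so these fitted differences are no bounds. With normexp they were 1.56 and 1.81. Groups of 3 arrays are too small for the test of single outlying samples.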

How the results depend on the processing

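Calls were fewer with normexp background correction, whose offset of 50 makes the folds of dim probes smaller. Those between F9 and GC-1 fell to 1 higher in F9 and 0 in GC-1. Those between F9 and GC-2 fell to 2 and 0, and those between GC-1 and GC-2 to 0 in GC-1. The median bound over the nearest tissue was then 1.94-fold, and brain and heart were nearest for 0. Within slide 3, 5 lncRNAs were higher in GC-1 than in F9 and 2 in GC-2 than in F9. Leaving out single arrays gave 3 to 5 for GC-1 over F9, with 5 without GC-1 replicate 1 (Evc2 and AK165607 added) and 4 without F9 replicate 1 (Evc2). With no minimum fold, 3 were higher in GC-2 than in F9 and 1 (Bid) in GC-2 than in GC-1. With the flag for a positive and significant signal, F9 had 23, GC-1 31, GC-2 23, at least 1 line 38 and all 3 lines 15 of the lncRNAs, and the median bound was 9.75. Detection on at least 1 array gave 18, 19, 21, 34 and 9. The median kidney level was 3.91 with median scaling and -3.99 with the 75th percentile of the 13551 probes detected on all 24 arrays, since each sets another zero. With that percentile brain was nearest for 8, and XLOC_003932 was lower in F9 than in kidney (-0.0891, against 0.27). Quantile normalization put brain nearest for 14, heart for 17 and testis for 7, and slide 2 alone put brain nearest for 4. The causes were not tested.

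With the replicate number as a block, the counts stayed at 4 and 3, 4 and 1, and 3 and 0. Deviations of same-numbered arrays correlated at 0.045 to 0.41, so for F9 and GC-2 the numbers do not meet the limit of 0.1 for a pairing in every pair. Without liver replicate 1, chosen after seeing the data, the median bound was 4.29-fold. The median of all probes lay 0.23 from kidney in F9, -0.14 from it for GC-1 and -0.27 for GC-2, or by -0.12, -0.38 and -0.57 with the percentile of probes detected on all arrays. Liver arrays, the dimmest, set the bound over the nearest tissue for all 100.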
